A study of Danio rerio with 39 samples.

Results

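The response of zebrafish embryos to gamma irradiation at 5 mGy/h was set against their response at 0.5 mGy/h, gene by gene, as a difference of differences. The quantity described for each gene is the interaction, on the log2 scale: exposed minus control embryos at 5 mGy/h, minus exposed minus control embryos at 0.5 mGy/h. A positive interaction means that the response was more positive, or less negative, at 5 mGy/h. All 24 libraries of these 4 groups entered 1 fit, of 39 libraries in the series, and no library was chosen by its values. Of 32057 genes in the count files, 15770 had enough counts to be tested.

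The embryos were wild-type AB embryos, collected whole at the shield stage as pools, and each library came from 1 pool. The groups were 6 libraries of embryos irradiated continuously at 5 mGy/h in irradiation batch I30, 6 libraries of non-exposed I30 controls, 6 libraries of embryos irradiated at 0.5 mGy/h in batch I32, and 6 libraries of non-exposed I32 controls. Each dose rate was therefore present in 1 batch only. The interaction holds whatever differed between the dose rates and whatever differed between the batches, and these cannot be told apart. The level of a gene is given in CPM, counts scaled to a common library size after normalisation, as the lowest, the median and the highest of the 6 libraries of a group.

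At the shield stage the zebrafish embryo has started gastrulation. Maternal RNA laid down in the oocyte is being replaced by transcripts of the embryo's own genome, BMP and Nodal signals pattern the germ layers, and Wnt, FGF and retinoic acid signals set up the posterior body. An outer epithelium rich in keratins, the enveloping layer, covers the blastoderm, and the yolk syncytial layer lies beneath it. Fish genomes also hold very large clusters of C2H2 zinc finger genes that have few direct counterparts in mammals, many of which are transcribed in the early embryo.

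Depth was uneven between the groups. The libraries held 20896629 to 45879001 counts at 5 mGy/h, against 9845688 to 25507778 counts in I30 controls, and 14479982 to 33366846 counts at 0.5 mGy/h, against 21567972 to 31883814 counts in I32 controls. Replicate 6 of the 0.5 mGy/h embryos stood farthest from the other libraries on the first principal component, at -73.3, where the others lay between -29.2 and 47.2. Replicate 4 of the I30 controls, the shallowest library, stood apart on the fourth, at -56.4 against -17.2 to 22.7. All genes on the lists of the organizer, of Nodal signalling and of germ cells were detected, and the 14 organizer genes summed to 936 to 1259 CPM at 5 mGy/h, against 823 to 981 CPM in I30 controls, and to 873 to 1295 CPM at 0.5 mGy/h, against 981 to 1263 CPM in I32 controls.

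The response differed between the dose rates in 3274 of 15770 genes, or 20.8%, with an adjusted p under 0.05 in edgeR's quasi-likelihood test. The interaction was positive in 1530 genes (9.70% of those tested) and negative in 1744 genes (11.1%). An unadjusted p under 0.05 was reached by 5521 genes. The median interaction of the genes that passed was 0.54 among the positive and -0.82 among the negative. Their median level was 15.5 CPM for a negative interaction and 60.8 CPM for a positive one, both above the 7.52 CPM of all genes tested. Shares of gene lists are set below against all genes tested, not against genes of a similar level. At a stricter call, an interaction past 1.5-fold whose adjusted p was below 0.01, 673 genes (4.27%) passed, 140 of them positive and 533 negative. With every library thinned to the lowest total, 2764 of 13742 genes passed, and 2548 of them had also passed, in the same direction, at full depth.

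In most of these genes the responses had opposite signs. Among the 3274 genes, the estimated response to the higher and that to the lower dose rate pointed in opposite directions in 3155, or 96.4%, compared with 59.7% of all genes tested. By construction, responses of opposite sign add up in the interaction. The groups that were not exposed also differed. In 2061 of the 3274 genes (63.0%) the I30 controls differed from the I32 controls by more than the 5 mGy/h embryos differed from the 0.5 mGy/h embryos, and over all genes tested this share was 57.3%. Among genes with a positive interaction it was 78.0%, and among those with a negative one 49.8%. The larger of the 2 responses was the one at 0.5 mGy/h in 28.0% of the genes with a positive interaction and in 60.9% of those with a negative one.

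**Figure D1:**
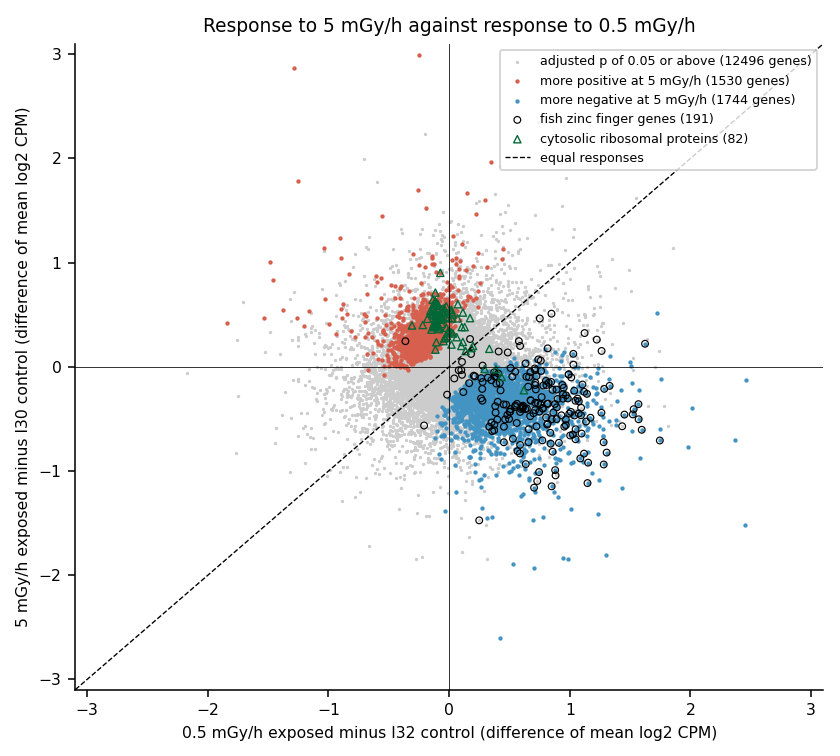
Response of each of the 15770 genes at 5 mGy/h (vertical axis) against its response at 0.5 mGy/h (horizontal axis), both as exposed minus control in mean log2 CPM over 6 libraries a group, with genes that passed in colour, fish zinc finger genes as open circles and cytosolic ribosomal proteins as open triangles. The 1530 genes with a positive interaction lie above the dashed line of equal responses and the 1744 with a negative one below it, and most of both lie in the quadrants where the responses have opposite signs.

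A count of libraries that do not overlap gave a similar share. Each exposed library was expressed as its distance from the mean of its own batch's controls in log2 CPM, which leaves out the spread of those controls. The 6 distances at 5 mGy/h and the 6 at 0.5 mGy/h did not overlap in 3164 genes (20.1%), in 1419 (9.00%) with the 5 mGy/h libraries above and in 1745 (11.1%) with them below. Of the 3274 genes that passed the test, 2484 were without overlap.

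Of the lists, chosen with earlier results of these data known, the fish zinc finger genes had the largest share passing in a single direction. They were taken as the C2H2 zinc finger genes with symbols numbered between 970 and 1187 and the znfl genes, 212 in all, of which 191 were tested. The interaction was negative in 189 of the 191, and 108 (56.5%) passed, all of them in the negative direction, against 11.1% of all genes. Their median interaction was -1.17, with a range of -2.39 to 0.71, against a median of 0.00 over all genes tested. The 2 members above 0, znf1008 and znf1109, did not pass (adjusted p = 0.10 and 0.794). The distances of the 5 mGy/h libraries lay wholly below those of the 0.5 mGy/h libraries in 97 members, and wholly above them in 1, znf1008. Over all 15770 genes tested they lay wholly below in 1745 (11.1%) and wholly above in 1419 (9.00%). Because the list was chosen with earlier results of these data known, its shares are not independent evidence.

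The median response of these genes was -0.36 at 5 mGy/h, against 0.74 at 0.5 mGy/h. Their median difference between I30 and I32 controls was 0.46. Averaged over the 191 genes, the level per library was lowest at 0.32, in the middle at 0.77 and highest at 1.05 log2 CPM in 5 mGy/h embryos, against 0.32, 1.12 and 1.70 log2 CPM in I30 controls. It was 0.98, 1.37 and 1.74 log2 CPM in 0.5 mGy/h embryos, against 0.14, 0.73 and 0.86 log2 CPM in I32 controls. At 5 mGy/h the libraries therefore lay inside the wide range of their controls, whereas at 0.5 mGy/h all 6 libraries lay above all 6 controls. The number that passed was between 73 and 132 when 1 library was left out, and between 80 and 123 under the other refits, with a median interaction between -1.31 and -0.98 throughout.

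Among the members, znf986 had 1.35, 2.44 and 3.66 CPM at 5 mGy/h, against 2.76, 3.95 and 7.30 CPM in I30 controls, and 3.99, 4.93 and 6.55 CPM at 0.5 mGy/h, against 1.22, 2.19 and 3.44 CPM in I32 controls. The exposed and control libraries overlapped at 5 mGy/h and were apart at 0.5 mGy/h. Its interaction was -2.03 ± 0.36 (SE, adjusted p = 0.00216). The more abundant znf991 had 3.35, 3.95 and 5.93 CPM at 5 mGy/h, against 3.45, 5.93 and 10.9 CPM in I30 controls, and 6.84, 7.95 and 12 CPM at 0.5 mGy/h, against 2.75, 4.14 and 5.04 CPM in I32 controls, with an interaction of -1.78 ± 0.33 (SE, adjusted p = 0.0024). In znf1061, 1.35, 1.67 and 2.18 CPM were counted at 5 mGy/h, against 0.592, 3.72 and 4.19 CPM in I30 controls, and 3.94, 5.22 and 6.54 CPM at 0.5 mGy/h, against 1.38, 2.61 and 3.36 CPM in I32 controls, with an interaction of -1.93 ± 0.37 (SE, adjusted p = 0.00307). One I30 control of znf1061 lay below every 5 mGy/h library while the median control lay above them all. Genes of this family occur in many related copies, and only uniquely mapped reads were counted. How alike these copies are was not examined, and how reads split between them is uncertain, so the values of single members are less certain than that of the group.

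Zinc finger genes with lower numbers were counted apart. Of 92 tested, 16 (17.4%) passed with a negative interaction, against 11.1% of all genes, and 6 (6.52%) with a positive one, against 9.70%. Their median was -0.16. With 1 library left out, 10 to 20 passed negatively, with 10 without I30 control 1 or 5, and 2 to 8 positively, with 2 without any one of I30 exposed 1, 3 or 4, I30 control 1 or 5, 0.5 mGy/h exposed 4, or I32 control 2. In the 18 libraries kept by the study 13 passed positively. ZNF710 was the most positive of them (1.23 ± 0.31, SE, adjusted p = 0.00961).

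Genes that lie next to a fish zinc finger gene were counted as well, without a test. Neighbours were read from the gene order of the RefSeq annotation of another assembly, GRCz12tu, in which 11207 tested genes could be placed by symbol. This set was chosen after the values had been seen. Of the 191 fish zinc finger genes tested, 59 could be placed. Beside means next in the order of the placed genes on a chromosome, at any distance, so genes that were not placed may lie between. Of 71 other genes beside a placed fish zinc finger gene, 30 (42.3%) had a negative interaction that passed and 4 a positive one, with a median of -0.63. Of 11003 genes not beside a placed one, 1134 (10.3%) were negative and 1225 positive, with a median of 0.02. Genes that lie beside an unplaced fish zinc finger gene may be among these 11003. Most of the 71 carry names of clones or of cDNA projects, such as si:dkey-253d23.8 (-1.79) and zgc:173721 (-1.64). Zinc finger genes were set aside by symbol only, so members of the family without such a symbol may be among the 71. Whether they are was not examined, and the 42.3% is therefore not a share of unrelated genes. SCO1, a copper chaperone of cytochrome oxidase, went the other way (0.89).

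**Figure D2:**
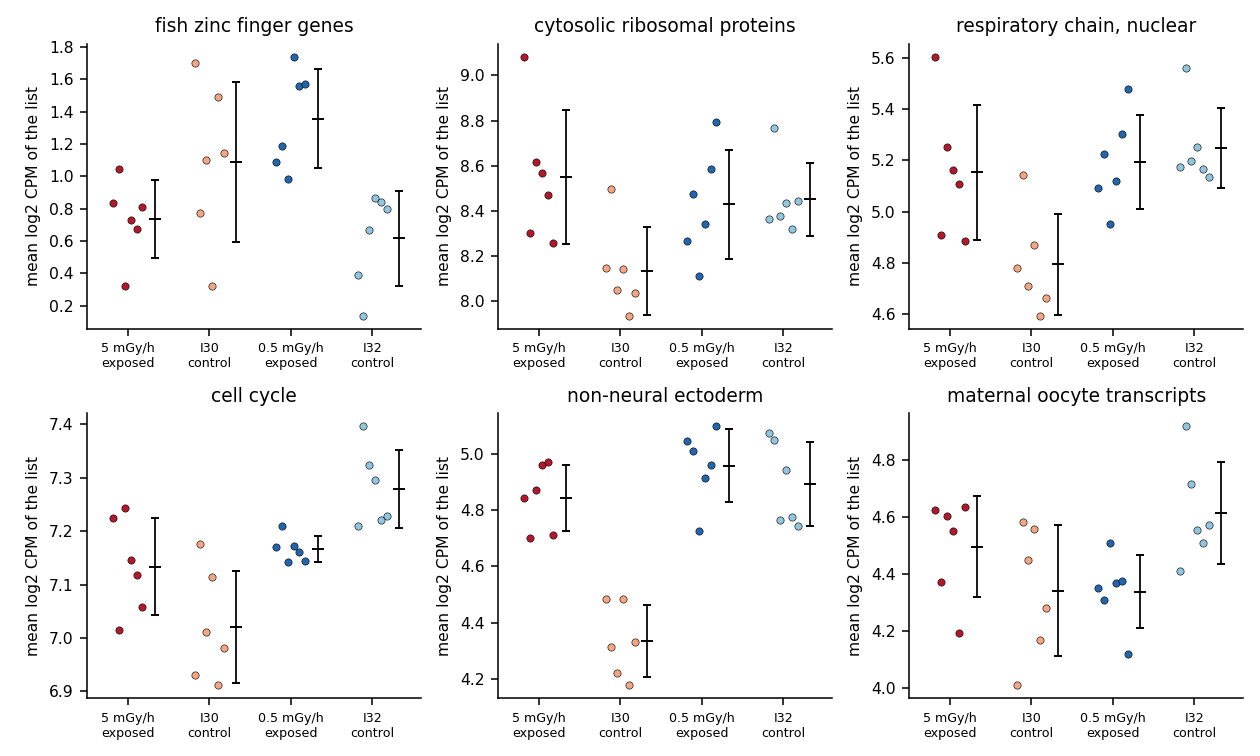
Mean log2 CPM over the tested genes of 6 lists in each of the 24 libraries (points), with the mean and SD of each group of 6 libraries beside them, ordered as 5 mGy/h exposed, I30 control, 0.5 mGy/h exposed and I32 control. Fish zinc finger genes reached 0.98 to 1.74 in 0.5 mGy/h embryos, above all I32 controls, while the lists of ribosomal proteins and of the respiratory chain were lowest in I30 controls.

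By the rule for named genes, the 12 most negative with a mean of at least 1 CPM ranged from -3.44 to -1.99. They were DYNLRB1, 6 genes numbered as fish zinc finger genes (znf1120, znf1029, znf986, znf1072, znf1090 and znf992), the clone-named si:ch211-223a21.1, si:ch211-91b17.1 and si:ch211-129p6.3, and 2 genes known here by identifier only, ENSDARG00000114783 and ENSDARG00000087544. DYNLRB1, a light chain of the dynein motor, had 0.21, 0.50 and 1.03 CPM at 5 mGy/h, against 0.704, 5.74 and 9.47 CPM in I30 controls, and 0.64, 1.65 and 4.50 CPM at 0.5 mGy/h, against 0.512, 1.09 and 2.96 CPM in I32 controls. Its I30 controls fell apart within the group, with 0.704 and 0.855 CPM in replicates 1 and 2 and 4.31 to 9.47 CPM in the other 4. The interaction was -3.44 ± 0.80 (SE, adjusted p = 0.00643), and -4.22 in the 18 libraries that the study kept, which do not include I30 control replicates 1 and 2. All 12 kept an adjusted p under 0.05 with any 1 library left out.

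Abundant genes were among those with the smallest p-values, and so were less abundant ones such as DBX1 and OTX2. SPAG7, CHMP2B and dek were chosen after the values had been seen, from the genes with the smallest p. SPAG7, named for its sperm-associated antigen, had 41.1, 52.6 and 84.5 CPM at 5 mGy/h, against 68.8, 112 and 130 CPM in I30 controls, and 68.2, 73.7 and 87.3 CPM at 0.5 mGy/h, against 34.8, 47.4 and 57.3 CPM in I32 controls. Its interaction was -1.56 ± 0.22 (SE, adjusted p = 0.00125). CHMP2B, a subunit of the ESCRT machinery that cuts membranes, had 50.7, 68.3 and 81.1 CPM at 5 mGy/h, against 74.7, 97.4 and 126 CPM in I30 controls, and 93.3, 107 and 122 CPM at 0.5 mGy/h, against 51.9, 73.5 and 80.1 CPM in I32 controls (-1.19 ± 0.18, SE, adjusted p = 0.00125).

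The chromatin protein gene dek was similar in pattern, with 117, 157 and 201 CPM at 5 mGy/h, against 184, 238 and 296 CPM in I30 controls, and 206, 250 and 290 CPM at 0.5 mGy/h, against 135, 164 and 195 CPM in I32 controls. In dek the interaction was -1.15 ± 0.18 (SE, adjusted p = 0.00125). In SPAG7, CHMP2B and dek, exposed and control libraries overlapped at 5 mGy/h, with medians lower in the exposed, and did not overlap at 0.5 mGy/h, with the exposed higher. All 3 kept their call with any 1 library left out.

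**Figure D3:**
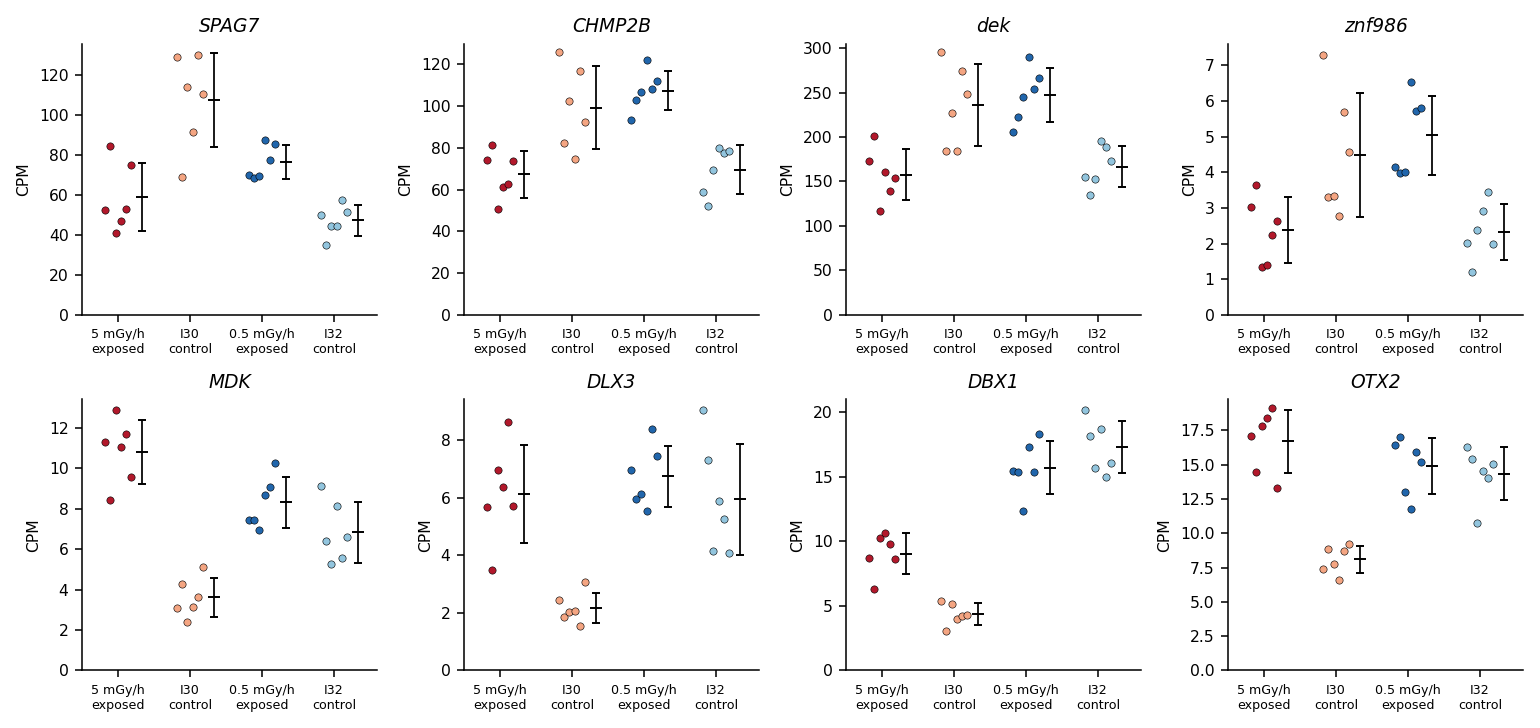
CPM of 8 genes in the 24 libraries (points), with the mean and SD of each group of 6 libraries, on a linear axis that starts at 0. In the upper row (SPAG7, CHMP2B, dek, znf986) the 0.5 mGy/h libraries lie above the I32 controls and the 5 mGy/h median lies below the I30 control median, and in the lower row (MDK, DLX3, DBX1, OTX2) the I30 controls lie below the other 3 groups.

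In 78.0% of the genes with a positive interaction, the controls of the batches differed by more than the exposed groups. That share does not tell whether the I30 controls were low or the I32 controls high. The 12 most positive with a mean of at least 1 CPM ranged from 1.18 to 1.51. They were MDK, DLX3, DBX1, ZNF710, actc1a, RARS2, KIF17, atp1a3b, si:ch211-128n12.5 and 3 genes known by identifier only, ENSDARG00000117610, ENSDARG00000080630 and ENSDARG00000117673. Of these, KIF17 lost its call without any one of I30 exposed 3 or 4, I30 control 1 or 5, 0.5 mGy/h exposed 1 or 6, or I32 control 2 (adjusted p up to 0.0762). The sodium pump subunit atp1a3b lost its call in 12 of 24 such refits (adjusted p up to 0.0857), without I30 exposed 1, 3 or 4, I30 control 2, 3 or 5, 0.5 mGy/h exposed 1, 3 or 4, or I32 control 1, 2 or 3. The other 10 kept theirs.

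MDK, which encodes the growth factor midkine, had 8.42, 11.2 and 12.9 CPM at 5 mGy/h, against 2.40, 3.41 and 5.13 CPM in I30 controls, and 6.95, 8.07 and 10.3 CPM at 0.5 mGy/h, against 5.26, 6.49 and 9.13 CPM in I32 controls. These values are of the copy ENSDARG00000020708, with an interaction of 1.31 ± 0.23 (SE, adjusted p = 0.00211). All 5 mGy/h libraries exceeded all I30 controls, whereas the 0.5 mGy/h libraries overlapped their controls. DBX1, a homeobox gene of the neural plate, had 6.29, 9.25 and 10.7 CPM at 5 mGy/h, against 3.05, 4.24 and 5.37 CPM in I30 controls, and 12.4, 15.4 and 18.3 CPM at 0.5 mGy/h, against 14.9, 17.1 and 20.1 CPM in I32 controls. The I30 controls of DBX1 lay below the I32 controls without overlap, and so did the exposed groups, by less (interaction 1.19 ± 0.19, SE, adjusted p = 0.00164).

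Genes of the cytosolic ribosome passed mostly in the positive direction. Of 82 cytosolic ribosomal protein genes tested, 42 (51.2%) passed with a positive interaction, against 9.70% of all genes, and 2 (2.44%) with a negative one, against 11.1%. Their median was 0.52, and 75 of 82 were above 0. Summed over the list, the level was lowest at 36060, in the middle at 44528 and highest at 66660 CPM at 5 mGy/h, against 28518, 31747 and 43031 CPM in I30 controls, and 32876, 40435 and 52338 CPM at 0.5 mGy/h, against 38566, 41221 and 55709 CPM in I32 controls. The libraries overlapped between exposed and control embryos in both batches, and the distances of the exposed libraries were without overlap in 9 of the 82 genes, a share close to the 9.00% over all genes.

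RPL21 was the most positive of them, with 24.7, 31.1 and 54 CPM at 5 mGy/h, against 13.1, 18.6 and 21.1 CPM in I30 controls, and 20.2, 27.4 and 35.3 CPM at 0.5 mGy/h, against 24.1, 28.7 and 32.7 CPM in I32 controls (0.996 ± 0.223, SE, adjusted p = 0.0053). Replicate 2 had the highest level of this list in I30 controls and also in I32 controls. The count of 42 fell to 17 without I32 control 2. It fell to 21 without I30 exposed 1, 25 without I30 exposed 3, 27 without I30 control 1, 26 without I30 control 5, 27 without 0.5 mGy/h exposed 3 and 25 without 0.5 mGy/h exposed 4, while the median stayed between 0.40 and 0.61 in every refit with 1 library left out. RPS24 and RPL22L1, the negative 2, had interactions of -0.43 and -0.57 (adjusted p = 0.0414 and 0.0416), but with 1 library left out RPS24 kept its call in 9 of 24 refits (adjusted p up to 0.0868) and RPL22L1 in 10 of 24 (adjusted p up to 0.0915).

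The nuclear genes of the mitochondrial respiratory chain showed the same direction. Of 82 tested, 35 (42.7%) passed with a positive interaction and 1 (1.22%) with a negative one, against 9.70% and 11.1% of all genes. The negative one was the ATP synthase inhibitor atp5if1b (-1.38 ± 0.34, SE, adjusted p = 0.00788). The median was 0.48, and 78 of the 82 were above 0. The complex I subunit ndufc2 had 46.7, 58 and 77 CPM at 5 mGy/h, against 46.7, 49.3 and 59.1 CPM in I30 controls, and 49.8, 54.1 and 60.7 CPM at 0.5 mGy/h, against 65.7, 69.9 and 87.8 CPM in I32 controls (0.65 ± 0.14, SE, adjusted p = 0.00439). In ndufc2 the 0.5 mGy/h libraries lay below all their controls, and the 5 mGy/h libraries overlapped theirs.

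For this list the count of 35 was 15 without I32 control 2, 17 without I30 exposed 1, 18 without 0.5 mGy/h exposed 4, 19 without I30 exposed 3 or I30 control 1, 20 without I30 control 5, 22 without I30 exposed 4 or 0.5 mGy/h exposed 3, 23 without I30 control 6, and 53 without I30 control 2. In the 18 libraries kept by the study it was 56, and with all 39 libraries in 1 fit 22. The median stayed between 0.37 and 0.62. Of the 13 protein genes of the mitochondrial genome, which sit in the same complexes, 2 (15.4%) passed in each direction. Over all genes 9.70% passed positively and 11.1% negatively. The median of the 13 was -0.14. MT-CO2 was the most negative that passed, with 1594, 2072 and 2473 CPM at 5 mGy/h, against 2230, 2695 and 2759 CPM in I30 controls, and 2456, 2624 and 2793 CPM at 0.5 mGy/h, against 1739, 2173 and 2664 CPM in I32 controls (-0.65 ± 0.14, SE, adjusted p = 0.00439). MT-ND3 was positive (0.68 ± 0.15, SE, adjusted p = 0.00547).

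Mitochondrial ribosomal proteins passed in 15 of 74 genes (20.3%) with a positive interaction and in 3 (4.05%) with a negative one, with a median of 0.21. Over all genes these shares were 9.70% and 11.1%. Ribosome biogenesis factors, which process ribosomal RNA in the nucleolus, were split. Of 69 tested, 24 (34.8%) passed with a negative interaction, against 11.1% of all genes, and 14 (20.3%) with a positive one, against 9.70%. The median was -0.11. NOC2L, whose yeast counterpart helps to export the large subunit, had 40.5, 46.9 and 53.5 CPM at 5 mGy/h, against 51.2, 67.1 and 78.1 CPM in I30 controls, and 54.6, 66.4 and 75.5 CPM at 0.5 mGy/h, against 32.7, 49 and 59.1 CPM in I32 controls (-0.93 ± 0.17, SE, adjusted p = 0.00222). The nucleolar protein gene nop16 was at -1.19 and DKC1, the pseudouridine synthase, at -0.68, while DDX21, a helicase, was at 0.50, BOP1 at 0.55 and TBL3 at 0.63. The positive count of mitochondrial ribosomal proteins was 7 without any one of I30 exposed 1, I30 exposed 3, 0.5 mGy/h exposed 4 or I32 control 2, 8 without I30 control 1 and 9 without I30 control 5 or 0.5 mGy/h exposed 3. The positive count of ribosome biogenesis was 6 without I32 control 2 and 8 without I30 exposed 1.

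**Figure D4:**
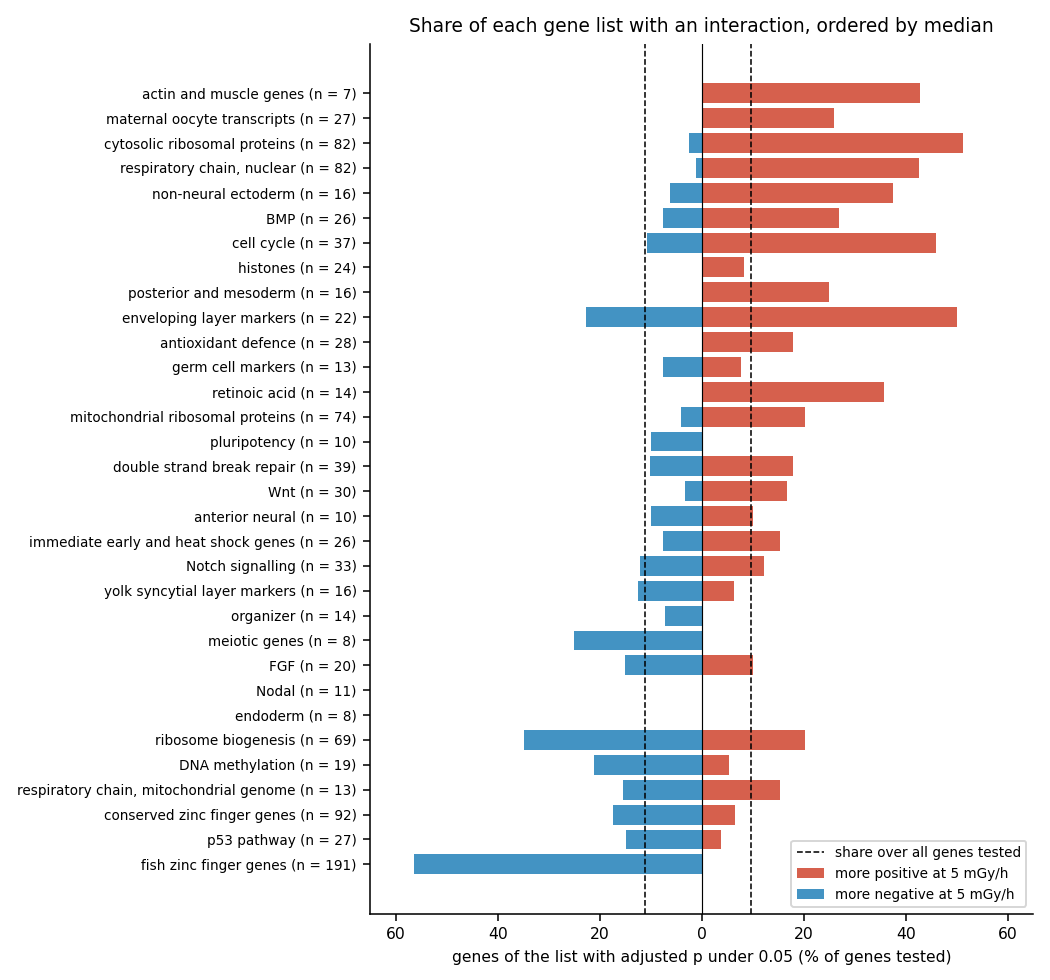
Share of the tested genes of each list that passed with a positive (right, red) or negative (left, blue) interaction, with n the number tested, lists ordered by their median interaction and dashed lines at the shares over all 15770 genes, 9.70% and 11.1%. Fish zinc finger genes reach 56.5% on the negative side, and cytosolic ribosomal proteins and enveloping layer markers about as far on the positive side.

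Genes that mark cell types of the embryo followed no single direction. In pools of whole embryos, fewer cells of a type and less RNA per cell cannot be told apart. Of 22 enveloping layer markers tested, 11 (50%) passed with a positive interaction and 5 (22.7%) with a negative one. Over all genes these shares were 9.70% and 11.1%. All 8 keratins tested were positive and passed, with a median of 0.62, whereas 3 of the 14 other epithelial genes were positive and 5 negative, with a median of -0.25. The keratin gene cyt1l had 125, 154 and 228 CPM at 5 mGy/h, against 81.2, 94.4 and 126 CPM in I30 controls, and 95, 122 and 145 CPM at 0.5 mGy/h, against 117, 128 and 169 CPM in I32 controls (0.87 ± 0.18, SE, adjusted p = 0.00387). The protease inhibitor spint1b, which guards the same epithelium, had 18.2, 19.5 and 24.4 CPM at 5 mGy/h, against 22.2, 31.8 and 34.6 CPM in I30 controls, and 24.8, 29.0 and 31.9 CPM at 0.5 mGy/h, against 19.1, 24.9 and 28.0 CPM in I32 controls (-0.82 ± 0.15, SE, adjusted p = 0.00257).

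The negative count of enveloping layer markers was 3 without any one of I30 exposed 3, I30 control 1, 0.5 mGy/h exposed 4 or I32 control 2. The summed level of the list was 8922 to 13333 CPM at 5 mGy/h, against 7814 to 9875 CPM in I30 controls, and 8827 to 12178 CPM at 0.5 mGy/h, against 10139 to 12968 CPM in I32 controls. Yolk syncytial layer markers passed in 1 gene positively, hnf4b (0.47, adjusted p = 0.0249), and in 2 negatively, the lipid transport genes apoc1 (-0.61, adjusted p = 0.0244) and MTTP (-0.38, adjusted p = 0.0378), out of 16 tested. The 2 negative genes are 12.5% of the list, against 11.1% of all genes. With 1 library left out the number of negative genes was 0 to 4, with 0 without I30 exposed 3 or I30 control 1 and 4 without I30 control 4. MTTP kept its call in 10 of 24 refits (adjusted p up to 0.0901). The summed level of the 16 markers was 10304 to 13833 CPM at 5 mGy/h, against 9314 to 11219 CPM in I30 controls, and 10810 to 15184 CPM at 0.5 mGy/h, against 11020 to 12951 CPM in I32 controls. No list of cell type markers was at 0 in any library, and their part in the other results was not tested.

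Maternal and germ cell transcripts were counted apart. Of 27 maternal oocyte transcripts tested, 7 (25.9%) passed, all with a positive interaction, against 9.70% of all genes, and the median was 0.52. The nuclear chaperone gene npm2a, which is expressed in eggs, had 10.6, 14.5 and 17.0 CPM at 5 mGy/h, against 10.5, 13.2 and 18.8 CPM in I30 controls, and 12.1, 14.1 and 14.6 CPM at 0.5 mGy/h, against 16.2, 20.1 and 24.2 CPM in I32 controls (0.62 ± 0.18, SE, adjusted p = 0.0189). Here the 0.5 mGy/h libraries lay below all their controls. The count of 7 was 3 without I32 control 2, 4 without I30 exposed 1, I30 exposed 3 or I30 control 1, and 11 without I30 control 2.

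Of 13 germ cell markers, 2 passed, in opposite directions. Each is 7.69% of the list, against 9.70% positive and 11.1% negative over all genes. DDX4, the germ plasm helicase also called vasa, had 186, 192 and 228 CPM at 5 mGy/h, against 224, 253 and 291 CPM in I30 controls, and 260, 276 and 287 CPM at 0.5 mGy/h, against 177, 251 and 273 CPM in I32 controls (-0.59 ± 0.13, SE, adjusted p = 0.00439). PIWIL2, which binds small RNAs that silence transposons, was at 0.62 (adjusted p = 0.0231, and 0.0551 without I32 control 2). Of 8 meiotic genes tested, the synaptonemal complex genes SYCP3 (-1.91 ± 0.50, SE, adjusted p = 0.011) and SYCP1 (-1.57 ± 0.45, SE, adjusted p = 0.0169) passed, both with medians of at most 1.56 CPM in every group. These 2 genes are 25% of the list, against 11.1% negative over all genes.

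Among patterning genes the interaction was mostly positive where it passed. Of 16 transcription factors of the non-neural ectoderm, 6 (37.5%) passed with a positive interaction and 1 (6.25%) with a negative one. Over all genes these shares were 9.70% and 11.1%. The median of the list was 0.43. DLX3, a homeobox gene of the epidermis and of placodes, had 3.47, 6.03 and 8.61 CPM at 5 mGy/h, against 1.55, 2.05 and 3.08 CPM in I30 controls, and 5.54, 6.55 and 8.37 CPM at 0.5 mGy/h, against 4.07, 5.56 and 9.03 CPM in I32 controls (1.32 ± 0.29, SE, adjusted p = 0.00493). The homeobox gene msx1a was at 1.01 ± 0.22 (SE, adjusted p = 0.00526) and the forkhead gene foxi1, an early factor of the ectoderm, at 0.61 ± 0.16 (SE, adjusted p = 0.00965). As in DLX3, the I30 controls of msx1a (1.91 to 3.35 CPM) lay below every library of the other 3 groups (3.76 CPM and above).

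In the BMP pathway, which sets ventral fates, 7 of 26 genes tested (26.9%) passed positively and 2 (7.69%) negatively, with a median of 0.39. Over all genes these shares were 9.70% and 11.1%. The ligand gene BMP2, in the copy ENSDARG00000041430, was at 0.70 (adjusted p = 0.0225), and SMAD5, a transducer, at 0.42 (adjusted p = 0.0248). The decoy receptor gene BAMBI, in the copy ENSDARG00000055381, had 507, 642 and 753 CPM at 5 mGy/h, against 401, 446 and 561 CPM in I30 controls, and 412, 477 and 558 CPM at 0.5 mGy/h, against 460, 546 and 799 CPM in I32 controls (0.72 ± 0.16, SE, adjusted p = 0.00558). Of the direct targets, ID1 was positive (0.45, adjusted p = 0.0218) and ID3 negative (-0.47, adjusted p = 0.0378). On unstranded counts ID1 was at 0.10 and lost its call (adjusted p = 0.597), and ID3 kept its call in 13 of 24 refits with 1 library left out (adjusted p up to 0.0869). The positive count was 3 without I32 control 2. BMP2 lost its call in 1 of the 24 refits with 1 library left out, with an adjusted p of 0.0541.

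Retinoic acid genes passed in 5 of 14 (35.7%), all positively, against 9.70% of all genes, with a median of 0.23. They were the enzyme of synthesis ALDH1A2 (0.42, adjusted p = 0.0188), the reductase DHRS3 (0.68, adjusted p = 0.0109), the binding protein CRABP2 in the copy ENSDARG00000030449 (0.60, adjusted p = 0.0101), the receptor rarab (0.37, adjusted p = 0.0206) and the enzyme of breakdown CYP26A1 (0.33, adjusted p = 0.0395). For CRABP2 the levels were 782, 828 and 1044 CPM at 5 mGy/h, against 561, 611 and 704 CPM in I30 controls, and 613, 673 and 825 CPM at 0.5 mGy/h, against 581, 774 and 965 CPM in I32 controls. All its 5 mGy/h libraries exceeded all I30 controls, and the 0.5 mGy/h libraries overlapped theirs. CYP26A1 lost its call in 11 of the 24 refits with 1 library left out, with an adjusted p up to 0.0723, without I30 exposed 1, 3, 4 or 5, I30 control 3, 0.5 mGy/h exposed 1, 3 or 4, or I32 control 1, 2 or 4.

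Of 16 genes of posterior tissue and mesoderm, 4 (25%) passed, all positively, against 9.70% of all genes. The homeobox gene cdx1a had 31.2, 35.5 and 47.1 CPM at 5 mGy/h, against 16.9, 18.1 and 26.6 CPM in I30 controls, and 25.2, 28.9 and 32.8 CPM at 0.5 mGy/h, against 17.9, 26.3 and 40.9 CPM in I32 controls (0.84 ± 0.21, SE, adjusted p = 0.00941). The T-box genes tbx6 (0.79) and tbx16l (0.61) and the homeobox gene eve1 (0.49) were the others (adjusted p = 0.015, 0.00888 and 0.0222). Of 10 anterior neural genes tested, 1 (10%) passed in each direction, near the 9.70% positive and 11.1% negative over all genes. In the anterior neural list, OTX2, which marks forebrain and midbrain, had 13.3, 17.4 and 19.1 CPM at 5 mGy/h, against 6.61, 8.23 and 9.23 CPM in I30 controls, and 11.8, 15.6 and 17.0 CPM at 0.5 mGy/h, against 10.8, 14.8 and 16.3 CPM in I32 controls (0.99 ± 0.17, SE, adjusted p = 0.00211), while 1 copy of ZIC2 was negative (-0.55, adjusted p = 0.00765).

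The pluripotency and neural factor SOX2 went the other way, with means of 56.7 ± 8.01 CPM at 5 mGy/h, against 84.3 ± 16.2 CPM in I30 controls, and 70.4 ± 3.44 CPM at 0.5 mGy/h, against 59.3 ± 7.91 CPM in I32 controls (SD, n = 6 each). The libraries overlapped in both batches, and the interaction was -0.82 ± 0.15 (SE, adjusted p = 0.00279 in edgeR). It was the 1 of 10 genes on the pluripotency list to pass, or 10% negative, against 11.1% of all genes. Of 30 Wnt genes, 5 passed positively, among them the receptor genes FZD7 (0.35) and both copies of FZD8 (0.52 and 0.53), and 1 negatively, drll.1, a draculin-like zinc finger gene that the list also held. These were 16.7% positive and 3.33% negative, against 9.70% and 11.1% of all genes, and the negative share is that of drll.1 alone. The positive count of Wnt genes was 1 without I32 control 2, 2 without I30 exposed 3 or 0.5 mGy/h exposed 4, 3 without I30 exposed 5 or I32 control 1, 8 without I30 control 2 or 0.5 mGy/h exposed 6, and 9 without I30 exposed 2 or 6. Of 20 FGF genes, the ligand genes FGF4 (-1.39) and FGF8 (-0.47) passed negatively (adjusted p = 0.0167 and 0.0101), as did the feedback inhibitor spred2a (-0.77, adjusted p = 0.015), and the feedback genes SPRY1 (0.52) and etv5b (0.45) positively. The FGF list was thus at 10% positive and 15% negative, near the 9.70% and 11.1% of all genes.

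Of 33 Notch genes, 4 (12.1%) passed in each direction, against 9.70% and 11.1% of all genes. With 1 library left out, 0 to 4 passed positively, with 0 without I30 exposed 1, I30 exposed 3, 0.5 mGy/h exposed 4 or I32 control 2, and 2 to 5 negatively. The 2 copies of HES6 were at 0.41 (ENSDARG00000019335) and -1.38 (the scarce ENSDARG00000007097), and kept their calls in 12 and 17 of the 24 refits. No gene on the lists of Nodal signalling (11 tested) and of endoderm (8 tested) passed in edgeR, against 20.8% of all genes. At an unadjusted p under 0.05 there were 5 Nodal genes and 0 endoderm genes, and DESeq2 called 1 Nodal gene. With 1 library left out, up to 3 Nodal genes passed positively (without I30 exposed 2) and up to 1 negatively. In the 18 libraries kept by the study 1 Nodal gene and 2 endoderm genes passed, all positively, and without I30 control 4 and 0.5 mGy/h exposed 6 together 2 Nodal genes did. Of 14 organizer genes, lhx1a alone passed (-0.58 ± 0.14, SE, adjusted p = 0.00705), or 7.14% negative, against 11.1% of all genes.

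Cell cycle genes passed in 21 of 37, 17 (45.9%) positively, against 9.70% of all genes, and 4 (10.8%) negatively, against 11.1%. The median was 0.36. The negative count was 2 without any one of I30 exposed 3 or 4, I30 control 3, 5 or 6, 0.5 mGy/h exposed 4 or 5, or I32 control 1. The replication helicase subunit MCM5 had 274, 327 and 401 CPM at 5 mGy/h, against 244, 270 and 322 CPM in I30 controls, and 273, 282 and 326 CPM at 0.5 mGy/h, against 319, 344 and 423 CPM in I32 controls (0.55 ± 0.12, SE, adjusted p = 0.00531). The mitotic kinase AURKB was at 0.66 ± 0.17 (SE, adjusted p = 0.0113) and the sliding clamp PCNA at 0.56 (adjusted p = 0.026). Among the negative 4 was GMNN, an inhibitor of replication licensing, with 26.5, 35.7 and 37.4 CPM at 5 mGy/h, against 34.8, 54.5 and 58.5 CPM in I30 controls, and 48.7, 56.6 and 65.5 CPM at 0.5 mGy/h, against 26.3, 43.7 and 49.3 CPM in I32 controls (-1.07 ± 0.20, SE, adjusted p = 0.00258).

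The cyclin CCNE2, which acts at the start of replication, was negative too (-0.87 ± 0.17, SE, adjusted p = 0.0032), as were CDC20 (-0.45) and MAD2L1 (-0.43), which act at the checkpoint of mitosis. CDC20 lost its call in 9 of 24 refits with 1 library left out (adjusted p up to 0.064) and MAD2L1 in 17 (adjusted p up to 0.103). The positive count of cell cycle genes was 9 without any one of I30 exposed 1, I30 exposed 3 or I32 control 2, and 11 without I30 control 1 or 0.5 mGy/h exposed 4.

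Genes of the response to DNA damage passed in both directions. Of 27 genes of the p53 pathway, 1 (3.70%) passed positively, against 9.70% of all genes, and 4 (14.8%) negatively, against 11.1%, with a median of -0.20. With 1 library left out, 0 to 2 passed positively and 2 to 7 negatively, with 2 without I30 exposed 3, I30 control 5 or I32 control 2, and 7 without I30 exposed 2 or I30 control 2. The pro-apoptotic target pmaip1 had 6.99, 9.50 and 10.7 CPM at 5 mGy/h, against 10.1, 12.5 and 15.5 CPM in I30 controls, and 8.06, 9.07 and 11.2 CPM at 0.5 mGy/h, against 4.52, 6.72 and 7.60 CPM in I32 controls (-0.98 ± 0.19, SE, adjusted p = 0.00338). In pmaip1 the 0.5 mGy/h libraries exceeded all I32 controls.

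Of 39 double strand break repair genes, 7 (17.9%) passed positively, against 9.70% of all genes, and 4 (10.3%) negatively, against 11.1%, with a median of 0.15. The ligase gene LIG4 had 5.64, 6.65 and 8.34 CPM at 5 mGy/h, against 5.72, 10.6 and 11.9 CPM in I30 controls, and 8.54, 10.4 and 12.8 CPM at 0.5 mGy/h, against 3.83, 7.41 and 8.80 CPM in I32 controls (-1.15 ± 0.26, SE, adjusted p = 0.0053). The factor nhej1, which acts with that ligase in end joining, had 18.8, 21.9 and 33.7 CPM at 5 mGy/h, against 15.8, 16.9 and 22.1 CPM in I30 controls, and 18.6, 20.7 and 22.6 CPM at 0.5 mGy/h, against 22.3, 25.6 and 32.1 CPM in I32 controls (0.73 ± 0.17, SE, adjusted p = 0.00645). LIG4 and nhej1 thus differed in sign. The positive count of repair genes was 3 without I30 exposed 3 or I32 control 2, and 4 without I30 exposed 1, I30 control 5 or 0.5 mGy/h exposed 4. The negative count was 2 without I30 exposed 3, I30 control 1, I30 control 5, 0.5 mGy/h exposed 4 or I32 control 2, and 7 without I30 control 4.

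Antioxidant genes passed in 5 of 28 (17.9%, against 9.70% of all genes), all positively, among them both glutathione peroxidase genes gpx4a (0.79, adjusted p = 0.00864) and GPX4 (0.71, adjusted p = 0.0147). That count of 5 ranged between 2 and 9 with 1 library left out, with 2 without I30 exposed 1, I30 exposed 3 or I32 control 2, 3 without I30 exposed 4, I30 control 1, 3, 5 or 6, or 0.5 mGy/h exposed 4, and 9 without I30 control 2. Of 26 immediate early and heat shock genes, which respond to handling as well, 4 passed positively, including the endoplasmic chaperone HSPA5 (0.60 ± 0.16, SE, adjusted p = 0.0108), and 2 negatively, including ATF3 (-1.04 ± 0.28, SE, adjusted p = 0.0116). These were 15.4% positive and 7.69% negative, against 9.70% and 11.1% of all genes. Of 19 genes of DNA methylation, 4 (21.1%) passed negatively, against 11.1% of all genes, among them the maintenance factor UHRF1 (-0.69 ± 0.17, SE, adjusted p = 0.00864). The reader mbd2 was the 1 (5.26%) that passed positively, against 9.70% of all genes (1.02 ± 0.32, SE, adjusted p = 0.0248). The negative count was 2 without any one of I30 exposed 3, 4 or 6, I30 control 1 or 5, 0.5 mGy/h exposed 4 or 5, or I32 control 2, 2 in the 18 libraries kept by the study and 1 with all 39 libraries. Of 24 histone genes, which are poorly captured by selection of polyadenylated RNA, 2 (8.33%) passed, both positively, against 9.70% of all genes. The median over the list was 0.31. Of 7 actin genes, 3 (42.9%) passed, all positively, against 9.70% of all genes. They were actb1, actb2 and actc1a (0.63, 0.63 and 1.31).

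Genes that the study itself plotted or named were chosen on results that include 18 of these 24 libraries, together with other dose rates. Their passing is therefore not independent evidence. Some, such as blf, were named for a higher dose rate that is not among these groups. The genes it plotted across dose rates were listed as 9 entries, of which 1 could not be matched, and 8 genes were tested, counting copies. Of these 8, 3 (37.5%) passed positively, galnt6 (0.67 ± 0.21, SE, adjusted p = 0.0257), GATA2 (0.45 ± 0.13, SE, adjusted p = 0.0192) and CYP26A1, and 1 (12.5%) negatively, drll.1 (-1.38 ± 0.33, SE, adjusted p = 0.00699). Over all genes these shares were 9.70% and 11.1%. The draculin-like zinc finger gene drll.1 had 1.94, 2.67 and 3.16 CPM at 5 mGy/h, against 1.48, 3.35 and 6.04 CPM in I30 controls, and 3.66, 5.92 and 10.1 CPM at 0.5 mGy/h, against 2.75, 3.6 and 4.1 CPM in I32 controls. The glycosyltransferase galnt6 had 15.5, 18.4 and 23.8 CPM at 5 mGy/h, against 12.5, 17.0 and 21.5 CPM in I30 controls, and 8.32, 12.4 and 18.4 CPM at 0.5 mGy/h, against 15.5, 17.6 and 19.6 CPM in I32 controls, and lost its call without I30 control 1 (adjusted p = 0.052).

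The other 4 of those 8 did not pass. The endoderm and organizer factor FOXA2 was at -0.09 ± 0.14 (SE, adjusted p = 0.708), mixl1, a Nodal target, at -0.29 ± 0.20 (SE, adjusted p = 0.306), and the 2 copies of CLINT1, a clathrin adaptor, at 0.32 ± 0.12 and -0.26 ± 0.21 (SE, adjusted p = 0.0555 and 0.403). For mixl1 the levels were 48.2, 60.9 and 70.8 CPM at 5 mGy/h, against 67.9, 94.1 and 128 CPM in I30 controls, and 51.5, 71.1 and 89.5 CPM at 0.5 mGy/h, against 74.1, 91.2 and 113 CPM in I32 controls. Both medians of mixl1 were lower in exposed than in control embryos. From its text 23 entries were listed, of which 4 shared a symbol between copies and 1 could not be matched. Of the 18 genes left, 7 (38.9%) passed positively and 3 (16.7%) negatively, against 9.70% and 11.1% of all genes. Among the negative 3 was the zinc finger gene blf, with 13.8, 23.8 and 30.2 CPM at 5 mGy/h, against 21.4, 40.4 and 69.6 CPM in I30 controls, and 39.4, 45.6 and 60.3 CPM at 0.5 mGy/h, against 20.4, 34.9 and 43.4 CPM in I32 controls (adjusted p = 0.004).

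The number of genes that passed depended on single libraries. With each of the 24 libraries left out in turn, it ranged between 2009 and 4054. It was lowest without I32 control 2 (2009 genes, 758 positive and 1251 negative), I30 exposed 3 (2133) and I30 control 1 (2156), and highest without I30 control 2 (4054). Of the genes named above, eve1, TBL3, actb1 and FZD8 (ENSDARG00000045444) also lost their calls without I32 control 2 alone, DDX21 without that library or I30 exposed 1, mbd2 without it or I30 exposed 3, SMAD5 without it, I30 exposed 3 or I30 control 1, PCNA without it, I30 exposed 1 or I30 exposed 3, and apoc1 without I30 exposed 3 or I30 control 1. FZD7 and FZD8 (ENSDARG00000038569) kept theirs in 18 of 24 refits and SPRY1 in 16. In all 24 refits, 1802 of the 3274 genes passed in the same direction, 719 positive and 1083 negative. In the 18 libraries that the study kept after clustering these data, 3843 genes passed, and 2933 of them were among the 3274 with the same sign.

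**Figure D5:**
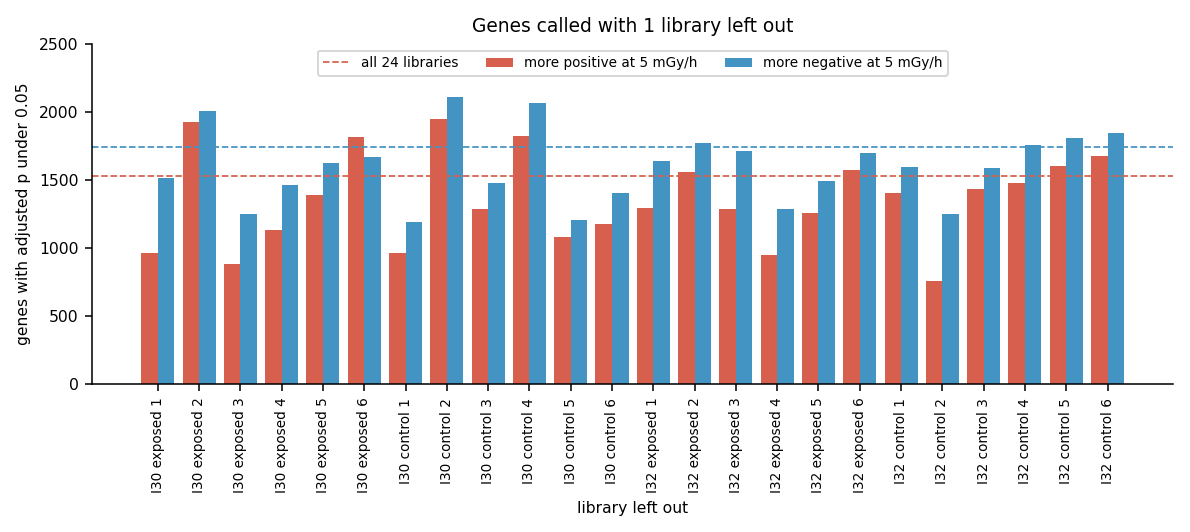
Number of genes that passed with a positive (red) or negative (blue) interaction when the library named on the horizontal axis was left out, with dashed lines at the counts from all 24 libraries, 1530 and 1744. The lowest positive count, 758, came without I32 control 2, and the negative counts lay between 1193 and 2107.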

How the data were processed

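The authors deposited, for each library, counts per Ensembl gene that STAR made from trimmed paired reads on GRCz11, without normalisation, for uniquely mapped reads only. The libraries were stranded and made from polyadenylated RNA. The stranded column that holds the counts was used here, and the opposite strand held 1.78% to 2.09% of the counts on genes. Of all rows, multimapping reads made up 14.8% to 17.7%, and reads on no gene 6.10% to 8.97% of the rest. These rows were left out. Reads on no gene made up 6.86% to 8.97% in I30 controls and 6.10% to 7.77% at 5 mGy/h. They made up 6.67% to 7.27% at 0.5 mGy/h and 6.36% to 7.23% in I32 controls. The part of this difference in the interaction was not tested.

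The 24 libraries were fitted together in 4 groups with edgeR (version 4.0.16, under R 4.3.3), using TMM factors and the package's own expression filter (count minimum 10, total minimum 15) and a two-sided quasi-likelihood test of the interaction, with Benjamini-Hochberg adjustment over all genes tested. A gene passed with an adjusted p under 0.05. The SE is the absolute log2 interaction divided by the square root of F. Log2 CPM, scaled with the TMM factors, used a prior count of 0.5, so that responses in log2 CPM differ slightly from the fitted interaction. Symbols come from a table of gene names and are partly in the human style, and 28988 of 32057 genes had one. Pooled over genes with enough counts, counting error is small beside the spread between pools. For scarce genes it was not examined apart, and the fish zinc finger genes had a median level of 1.75 CPM. Each of the 60 replicate pairs was compared by chi-square over genes, which gave 4.12 to 74.2 per degree of freedom, so no pair was 1 library deposited again.

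Members and lists were chosen with earlier results of these data known. Named genes were the 12 most positive and 12 most negative that passed with a mean of at least 1 CPM, list members that passed and genes the study plotted or named. Alternatives were the 18 libraries the study kept, DESeq2 1.42.0, limma-voom (limma 3.58.1) with quality weights, RLE size factors, other filters, unstranded counts, thinning, all 39 libraries, a stricter threshold, a replicate block and each library left out. Alternatives without I30 control 4 and 0.5 mGy/h exposed 6 together, and with genes of at least 1 CPM on average, were added after seeing the data. The test was also run on simulated data. Sequences were not used here.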

Additional observations from a re-analysis of the deposited data

Results flagged for a closer look

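The response at 5 mGy/h differed from that at 0.5 mGy/h in 3274 genes by the test of the interaction itself. Among 236 groups of 6 libraries checked, over total counts, the mean log2 CPM of each gene list and the CPM of the 24 named genes, 7 had 1 library whose gap to its nearest neighbour was too large a share of the range of the group by Dixon's criterion, where chance flags about 1 in 20 groups. Replicate 2 of the I30 controls stood above the others in cytosolic ribosomal proteins (gap of 0.627 of the range, 8.498 against 7.935 to 8.145 log2 CPM). Replicate 2 of the I32 controls did so in the same list (0.727, 8.77 against 8.32 to 8.44) and in nuclear genes of the respiratory chain (0.726, 5.56 against 5.13 to 5.25). Replicate 3 of the 0.5 mGy/h embryos stood below the others in the lists of posterior tissue and mesoderm (0.775, 3.69 against 4.17 to 4.30) and of Wnt (0.728, 4.96 against 5.19 to 5.28). Replicate 3 of the I32 controls stood below in organizer genes (0.815, 4.22 against 4.49 to 4.55). For ENSDARG00000117610, replicate 3 of the I30 controls stood above the others (0.627, 1.60 against 0.667 to 1.02 CPM). Their part in the interaction is given by the counts with each library left out.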

How the results depend on the processing

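The total of 3274 genes, and its 1530 positive and 1744 negative genes, stayed within 1.5 times of these values under the alternatives that kept every library or dropped several, except the threshold of a 1.5-fold change with an adjusted p under 0.01, which left 673 genes, 140 of them positive and 533 negative, by its construction. With 1 library left out, the total ranged from 2009 to 4054, the positive genes from 758 to 1947 and the negative genes from 1193 to 2107. The total was more than 1.5 times smaller without I32 control 2 (2009), I30 exposed 3 (2133) or I30 control 1 (2156), and the positive count was so without these (758, 882 and 963) and without I30 exposed 1 (966) or 0.5 mGy/h exposed 4 (947). DESeq2 gave 3722 genes, limma-voom 3872, RLE size factors 3295, no filter beyond a total above 0 gave 2969 of 26088, unstranded counts 3262 and all 39 libraries in 1 fit 2276. Without I30 control 4 and 0.5 mGy/h exposed 6 together, 3845 passed, and with a mean of at least 1 CPM 3143. The median of all genes moved by at most 0.035 under any of these. The median of the 19 DNA methylation genes changed sign, to 0.022, with no filter. The cause was not tested. Medians within 0.1 of 0 also crossed it under at least 1 alternative, those of organizer (0.07, lowest -0.03), Nodal (-0.05, highest 0.05), endoderm (-0.06, highest 0.03), FGF (-0.03, highest 0.04), meiotic (0.04, lowest -0.20) and yolk syncytial layer genes (0.10, lowest -0.05). The median of the 7 actin genes was 0.80 in the 18 libraries that the study kept.

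Whether replicate numbers pair the samples was not settled. Over 12 pairs of exposed and control libraries of the same batch and number, the deviations from the group means correlated between -0.31 and 0.30. Of these, 6 of 12 were over 0.1, and 4 of 12 exposed libraries correlated best with the control of their own number. With the replicate block, 3258 genes passed, 1497 positive and 1761 negative, of which 2950 were among the 3274. Dose rate and batch cannot be told apart. The study states that the eggs of all spawnings were pooled before the embryos were grown. Nothing in the labels says that the pools of a group came from separate clutches. The p-values measure the spread between these pools, not between clutches or irradiations. I30 controls were the shallowest group.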
